A study of Mus musculus with 12 samples.

Results

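Interferon-induced GTPases are described here in mouse bone marrow as a set of 10 genes, the guanylate-binding proteins Gbp2, Gbp3, Gbp4, Gbp5, Gbp6, Gbp7, Gbp8 and Gbp9 and the immunity-related GTPases Irgm1 and Igtp. They were chosen by gene symbol, which gave 10 of the 53801 rows of the expression tables. All 10 were among the 15119 genes that passed the filter on low counts. Each had counts in every library, from 29 counts for Gbp6 in one library to 1653 counts for Irgm1 in another.

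RNA of bone marrow from C57BL/6N mice was sequenced in 12 libraries, 3 in each of 4 groups. MI-E mice had a myocardial infarction made by ligating the left anterior descending (LAD) coronary artery and were given EMPA. MI mice had the infarction alone, Sham-E mice had a sham operation with EMPA, and Sham mice had the sham operation alone. The sources used here do not give the animals' age, the dose of EMPA or the time between surgery and sampling, and nothing says that the libraries of a group came from separate mice, so the p-values refer to the spread between these libraries, which may be technical.

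Guanylate-binding proteins and immunity-related GTPases are large GTP-hydrolysing proteins that cells make when interferon reaches them. Interferon-gamma signals through the kinases JAK1 and JAK2 to the gamma-activated sequence (GAS) of a promoter, and the type I interferons signal through a complex with STAT2 and IRF9 that binds the interferon-stimulated response element (ISRE), an element also used by other interferon regulatory factors such as IRF1. The proteins gather on the vacuoles that hold intracellular parasites and bacteria, and several of them act in inflammasome activation and autophagy. In mouse bone marrow the pathway is known for acting on blood stem cells, and Irgm1 is known to be needed for normal stem cell function.

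Promoter sequences are shown because interferon signalling acts through ISRE and GAS elements of promoters, and matches to these can be marked in them. Windows of 300 bases (250 before and 50 after the RefSeq gene start, build GRCm38.p6) were at hand for 6 of the 10 genes, Irgm1, Igtp, Gbp2, Gbp3, Gbp5 and Gbp7. RefSeq starts can lie at another position than the gene ends of the GENCODE annotation. Both strands were searched for an ISRE core, spelled here as GAAA, any 2 bases and GAAA, and for a GAS, spelled as TTC, any 3 bases and GAA. The 4 windows printed are those of both immunity-related GTPases and of Gbp2 and Gbp7, the members with the smallest p-values in MI-E against MI. They lie at chr11:48871371-48871670 (Irgm1, minus strand), chr11:58199306-58199605 (Igtp, plus strand), chr3:142620413-142620712 (Gbp2, plus strand) and chr3:142530086-142530385 (Gbp7, plus strand), and are written 5′ to 3′ on the gene's strand with ISRE cores and GAS in capitals.
Irgm1: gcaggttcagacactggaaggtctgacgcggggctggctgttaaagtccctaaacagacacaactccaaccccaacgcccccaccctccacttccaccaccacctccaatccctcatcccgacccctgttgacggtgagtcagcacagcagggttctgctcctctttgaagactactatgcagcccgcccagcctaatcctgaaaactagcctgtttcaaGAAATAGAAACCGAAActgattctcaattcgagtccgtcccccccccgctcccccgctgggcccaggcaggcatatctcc
Igtp: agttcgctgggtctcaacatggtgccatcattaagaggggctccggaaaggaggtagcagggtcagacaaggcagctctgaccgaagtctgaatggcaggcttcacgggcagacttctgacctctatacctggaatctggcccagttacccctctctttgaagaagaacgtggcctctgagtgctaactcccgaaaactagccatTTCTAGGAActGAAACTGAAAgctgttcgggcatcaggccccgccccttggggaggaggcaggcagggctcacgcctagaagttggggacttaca
Gbp2: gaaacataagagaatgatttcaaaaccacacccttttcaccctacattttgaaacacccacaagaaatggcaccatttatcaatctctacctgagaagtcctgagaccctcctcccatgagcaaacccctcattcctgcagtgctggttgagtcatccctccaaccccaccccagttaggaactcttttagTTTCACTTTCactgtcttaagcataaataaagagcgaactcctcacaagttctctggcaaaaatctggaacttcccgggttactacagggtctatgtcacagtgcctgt
Gbp7: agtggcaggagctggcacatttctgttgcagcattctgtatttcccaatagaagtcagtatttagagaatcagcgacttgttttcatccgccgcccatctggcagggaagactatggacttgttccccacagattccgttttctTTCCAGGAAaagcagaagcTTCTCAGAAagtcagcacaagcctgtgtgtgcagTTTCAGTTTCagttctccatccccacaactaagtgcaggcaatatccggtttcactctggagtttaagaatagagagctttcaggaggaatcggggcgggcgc

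All 6 genes with a window held an ISRE core, which 3.44% of all 32851 RefSeq mouse promoter windows of this length also held. The Irgm1 window had 2 overlapping cores, which began 30 and 24 bases before the start. In the Igtp window the core began 34 bases before the start and a GAS 45 bases before it. The single core of Gbp2 began 59 bases before the start, and that of Gbp7 began 53 bases before it, downstream of 2 GAS matches at 106 and 87 bases. Gbp3, which has 2 windows, had 2 overlapping cores in one of them, beginning 45 and 39 bases before the start, and no match in the other. Gbp5 had its core 165 bases before the start and GAS matches 245 and 52 bases before it. A GAS was therefore held by 3 of the 6 genes, against 8.3% of all windows, and both motifs by the same 3 genes, against 0.454% of all windows. ISRE cores and GAS matches did not overlap each other in these windows. A match to these letters is not evidence of a bound factor.

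**Figure D1:**
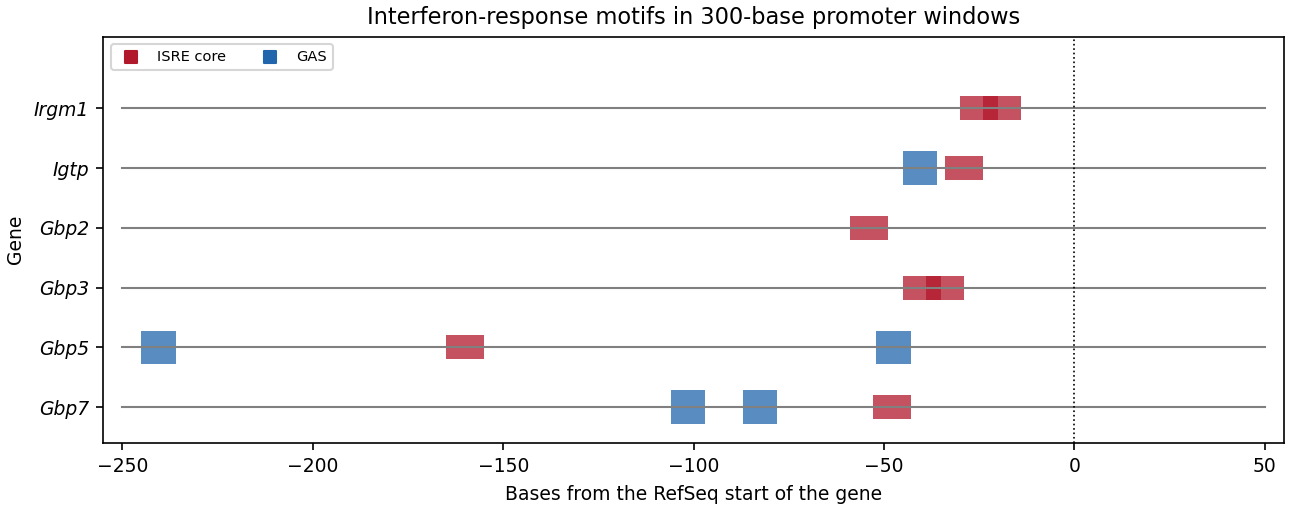
Positions of ISRE cores (red) and GAS matches (blue) in the promoter windows of the 6 genes that have one, with bases from the RefSeq gene start on the horizontal axis and the start at the dotted line. ISRE cores begin between 59 and 24 bases before the start in Irgm1, Igtp, Gbp2, Gbp3 and Gbp7, and 165 bases before it in Gbp5.

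The genes lie in 3 places of the mm10 genome. Gbp5, Gbp7, Gbp3 and Gbp2 follow each other on the plus strand of chromosome 3, between bases 142493978 and 142638008. Gbp8, Gbp9, Gbp4 and Gbp6 lie on the minus strand of chromosome 5, between bases 105014150 and 105293698. Irgm1 is on the minus strand of chromosome 11 (48861968 to 48871683) and Igtp on its plus strand (58199556 to 58207591). All 10 are annotated as protein-coding. Gbp6 shares 70.7% of its 50-base stretches of exon sequence with other genes, 65.0% with Gm43302 and 45.9% with Gbp10, so its counts are uncertain. The share is 18.1% for Gbp8, 12.7% for Gbp7 and 11.8% for Igtp, which overlaps the related gene Irgm2 on the same strand. It is at most 8.05% for the others. In addition, Gbp4, Gbp8 and Gbp9 share a first-exon stretch of 60 to 61 bases.

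Levels were compared between genes in TPM, a share of transcripts that takes account of transcript length. Irgm1, which keeps other immunity-related GTPases off the cell's own membranes, had the highest mean level of the 10, 26.6 TPM over the 12 libraries (13.1 to 44.6). Igtp, also called Irgm3 and known for its part in resistance to Toxoplasma gondii, came next with a mean of 18.6 TPM (9.57 to 32.0). Irgm1 was above Igtp, and Igtp above every guanylate-binding protein in the order of means, with Igtp above Gbp3 in 12 of 12 libraries. A middle group held Gbp3 with a mean of 9.48 TPM, Gbp9 with 9.07 TPM, Gbp7 with 8.62 TPM and Gbp2 with 7.23 TPM. These neighbours were not separated in all libraries, since Gbp3 exceeded Gbp9 in 5 of 12, Gbp9 exceeded Gbp7 in 8 of 12 and Gbp7 exceeded Gbp2 in 9 of 12. Gbp4 averaged 4.70 TPM, Gbp8 3.47 TPM and Gbp5 2.99 TPM, and Gbp6 was lowest with 1.45 TPM, under Gbp5 in 12 of 12 libraries.

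For the comparison of libraries, levels are given as CPM, counts divided by the scaled library size and brought to a common total, with the libraries named by group and by the number in the deposited column. Irgm1 had 27.98, 25.7 and 30.15 CPM in MI-E libraries 2, 3 and 4, 27.99, 46.4 and 38.2 CPM in MI libraries 1, 2 and 3, 23.5, 64.1 and 70.0 CPM in Sham-E libraries 1, 2 and 3, and 49.75, 54.7 and 53.4 CPM in Sham libraries 1, 3 and 4. Every MI-E and every MI library was below every Sham library, whereas the Sham-E libraries spanned the whole range and held both the lowest and the highest value of the 12. Igtp had 18.3, 17.4 and 21.7 CPM in MI-E, 19.8, 34.3 and 18.2 in MI, 16.6, 37.3 and 45.9 CPM in Sham-E, and 28.95, 34.0 and 32.0 CPM in Sham, in the same library order, which is kept below. All MI-E libraries were below all Sham libraries, MI 2 was above them, and Sham-E 1 was again the lowest library and Sham-E 3 the highest.

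Among the chromosome 3 genes, Gbp2, which coats the vacuoles of Toxoplasma gondii, had 7.82, 10.5 and 7.14 CPM in MI-E, 9.19, 24.97 and 13.8 in MI, 8.69, 22.3 and 23.05 CPM in Sham-E, and 13.5, 13.3 and 11.3 CPM in Sham. MI-E was below Sham without overlap, and MI 2, Sham-E 2 and Sham-E 3 stood well above the other 9 libraries. Gbp7, known in mouse for bringing subunits of the NADPH oxidase to bacterial vacuoles, had 25.95, 20.4 and 25.9 CPM in MI-E, 23.4, 48.6 and 43.3 in MI, 28.1, 45.4 and 52.0 CPM in Sham-E, and 37.8, 37.4 and 39.2 CPM in Sham. The MI-E libraries were below every library of Sham-E and of Sham, and MI 1 lay among them while MI 2 and MI 3 exceeded all Sham libraries. Gbp3 had 14.8, 16.05 and 17.3 CPM in MI-E, 14.9, 25.1 and 17.9 in MI, 17.6, 24.6 and 24.6 CPM in Sham-E, and 18.5, 20.55 and 18.05 CPM in Sham. Gbp5, known in mouse for promoting NLRP3 inflammasome activation, had 5.62, 4.67 and 6.18 CPM in MI-E, 4.32, 9.56 and 5.97 in MI, 6.40, 11.25 and 11.4 CPM in Sham-E, and 7.76, 7.34 and 6.865 CPM in Sham. Both genes had all MI-E libraries below all Sham-E and all Sham libraries, with MI 2 as the only MI library above the Sham libraries.

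Among the chromosome 5 genes, Gbp8 had 3.38, 4.05 and 3.46 CPM in MI-E, 3.315, 8.37 and 3.50 in MI, 3.46, 7.84 and 9.725 CPM in Sham-E, and 7.59, 5.95 and 5.595 CPM in Sham. MI-E was below Sham without overlap, and MI 1, MI 3 and Sham-E 1 lay at the level of the MI-E libraries or just under it. Gbp6, with its uncertain and low counts, had 1.61, 1.71 and 2.82 CPM in MI-E, 1.43, 3.62 and 2.96 in MI, 1.25, 4.62 and 8.13 CPM in Sham-E, and 4.26, 3.57 and 3.93 CPM in Sham. Its Sham-E libraries held both extremes, 6.48-fold apart, the widest ratio of highest to lowest library among the 10 genes. Gbp4 ran from 9.68 CPM in Sham-E 1 to 21.05 CPM in Sham-E 3, and Gbp9 reached 47.25 CPM in Sham 3, 3.37 times its level in Sham-E 1. For these 2 genes MI 3, not MI 2, was the highest MI library, and Gbp4 was the one member whose MI-E and Sham libraries overlapped.

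**Figure D2:**
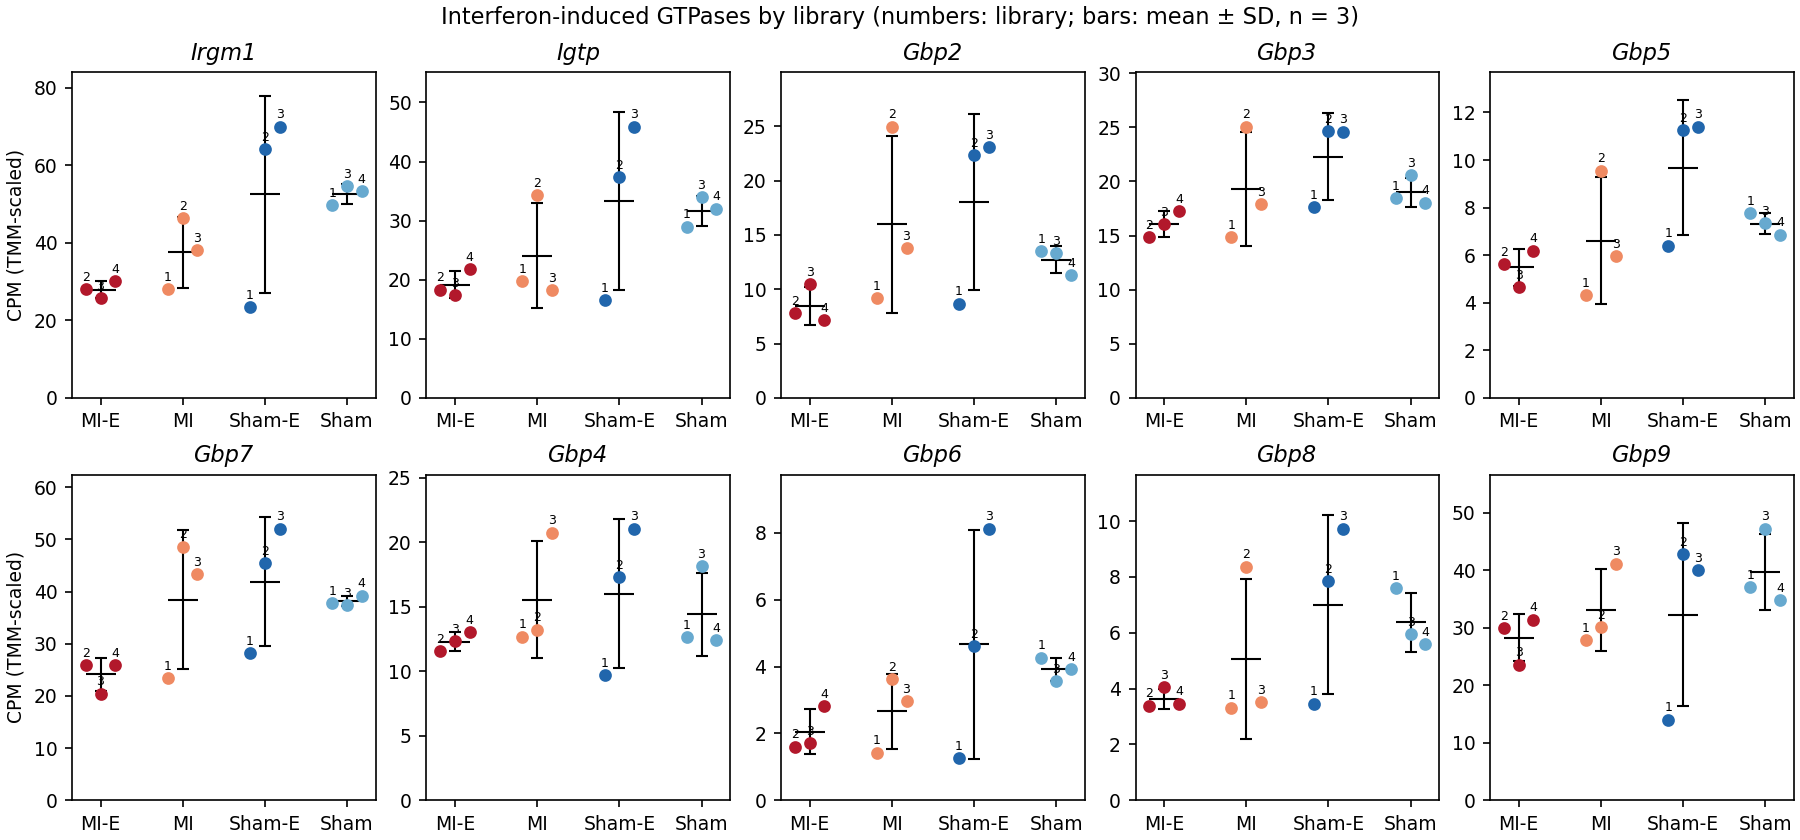
CPM of each of the 10 genes in every library, on linear axes that start at 0, with one point per library (numbered as in the deposited columns) and bars for the group mean ± SD (n = 3). MI-E and Sham libraries lie close together within each group, whereas MI and Sham-E libraries are spread, with Sham-E 1 the lowest Sham-E library for all 10 genes.

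The 10 genes moved together from library to library. On the log2 CPM scale, centred on each gene's own mean over the 12 libraries, all 10 were below their mean in MI-E 2, MI-E 3, MI-E 4, MI 1 and Sham-E 1, and all 10 were above it in Sham 3, Sham-E 2 and Sham-E 3. The mean of the 10 centred levels was -0.45, -0.47 and -0.29 in the MI-E libraries, -0.48, 0.38 and 0.003 in MI, -0.59, 0.55 and 0.75 in Sham-E, and 0.20, 0.27 and 0.12 in Sham. Sham-E 3 held the highest value of 7 genes and Sham-E 1 the lowest value of 5. Within a group, the median over the 10 genes of the log2 range between libraries was 0.33 in MI-E, 0.98 in MI, 1.43 in Sham-E and 0.24 in Sham, against 0.36, 0.66, 0.52 and 0.27 for the median of all 15119 genes in the same order. The genes thus varied more between the Sham-E libraries, and between the MI libraries, than the median gene did, and about as much as it within MI-E and within Sham. The pair with the closest course was Irgm1 and Igtp, with a root-mean-square difference of 0.17 between their centred log2 CPM. Gbp4 and Gbp9 differed by 0.28, and Gbp3 and Gbp6 were furthest apart at 0.57.

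**Figure D3:**
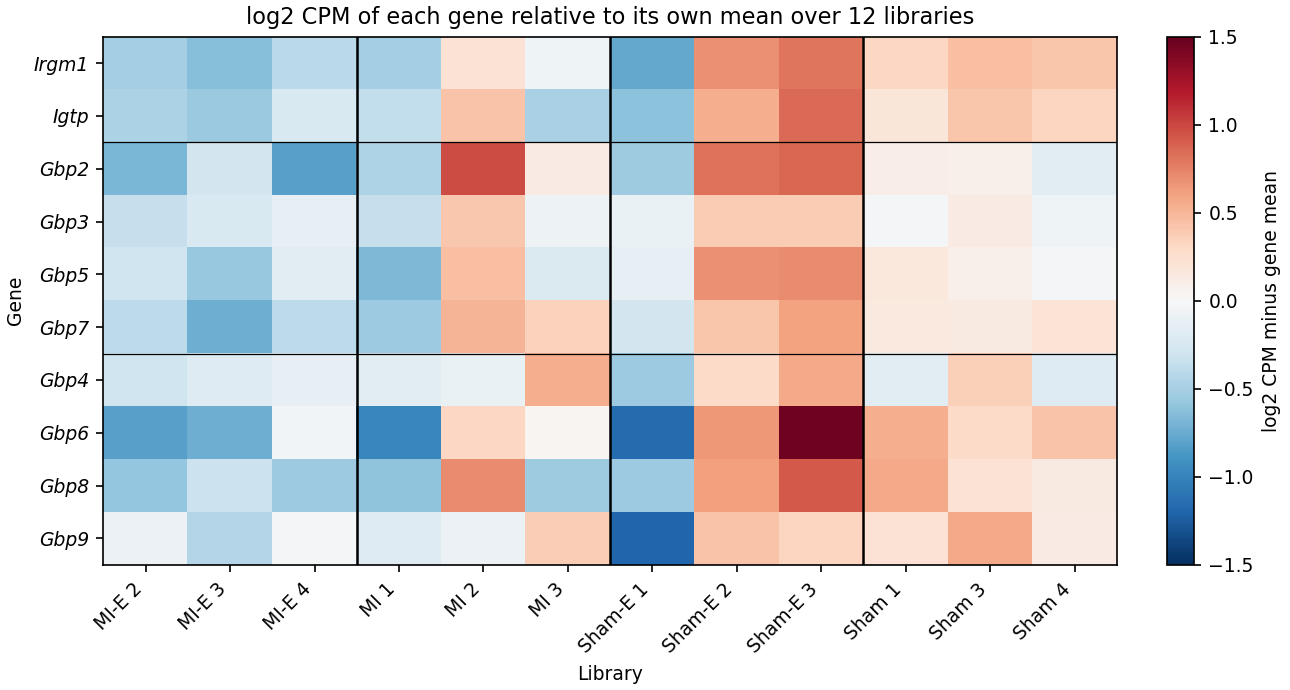
Centred log2 CPM (gene level minus the gene's mean over 12 libraries) of the 10 genes in each library, red above and blue below the mean, with libraries ordered MI-E, MI, Sham-E and Sham and rows grouped by family and chromosome. The columns of MI-E 2, 3 and 4, MI 1 and Sham-E 1 are blue for all 10 genes, and those of Sham-E 2, Sham-E 3 and Sham 3 are red for all 10.

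MI and Sham-E, the groups with more spread in the GTPase genes, also held the lowest correlations between libraries over all genes. Total counts were 21175087 to 24606783 per library. Within a group, pairs of libraries correlated across genes, in log2 CPM, at 0.981 to 0.985 in MI-E, 0.947 to 0.970 in MI, 0.945 to 0.981 in Sham-E and 0.985 to 0.987 in Sham. Sham-E 1 also had 10060 TPM of 4 early granulocyte precursor markers summed, against at most 4586 TPM in any other library. The mean insert length recovered from counts and TPM was 280.2 to 282.7 bp in MI-E, 263.3 to 265.2 bp in MI, 271.1 to 280.3 bp in Sham-E and 284.1 to 286.9 bp in Sham. It separated the groups in every comparison of 2 groups except MI-E against Sham-E, so insert length and group cannot be told apart there. Markers of marrow cells were present in every library, with 22300 to 44540 TPM for 5 immature neutrophil genes and 8526 to 68110 TPM for 5 erythroid genes.

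The effect of infarction in EMPA-treated mice is addressed by MI-E against Sham-E, in which all 10 genes were lower in MI-E, as were 49.6% of all genes. The median log2 fold change was -0.81, against 0.003 over all genes tested. Gbp2 averaged 8.48 ± 1.76 CPM in MI-E and 18.01 ± 8.09 CPM in Sham-E (SD, n = 3 each), or -1.09 ± 0.39 as a log2 fold change ± SE (adjusted p = 0.30 by edgeR, as below). Irgm1 averaged 27.95 ± 2.22 CPM in MI-E and 52.5 ± 25.4 CPM in Sham-E, a log2 fold change of -0.91 ± 0.32 (adjusted p = 0.29). Gbp7 averaged 24.1 ± 3.18 CPM in MI-E and 41.9 ± 12.3 CPM in Sham-E, a log2 fold change of -0.80 ± 0.26 (adjusted p = 0.28). The quasi-likelihood test of edgeR, with Benjamini-Hochberg adjustment over all genes, called 0 of the 10 at an adjusted p of 0.05, as it called 0% of the 15119 genes, and DESeq2 also called 0 of the 10, where it called 1.4% of all genes. At an unadjusted p of 0.05 there were 8 of 10 genes lower in both tools, all but Gbp4 and Gbp9, against 7.45% of all genes in edgeR and 8.2% in DESeq2. Libraries did not overlap for 3 of 10 genes, Gbp3, Gbp5 and Gbp7, all lower in MI-E, against 12.2% of all genes. In whole marrow, fewer cells of a type and less RNA per cell cannot be told apart.

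These differences depended on which Sham-E libraries were kept. Without Sham-E 1, Irgm1 passed the threshold, at -1.26 in log2 fold change (edgeR adjusted p = 0.0091), the median of the 10 genes was -1.08, and 0.755% of 15496 genes were called. At an unadjusted p under 0.05, 10 of 10 genes were then lower, against 8.38% of all genes. Without Sham-E 2 this held for 1 of 10, against 5.64% of all genes, with a median of -0.73, and without Sham-E 3 for 1 of 10, against 6.68%, with a median of -0.57. Leaving out MI-E 2, MI-E 3 or MI-E 4 left 4, 3 and 6 of 10, against 5.17%, 5.01% and 5.41% of all genes.

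The effect of EMPA after infarction is addressed by MI-E against MI. All 10 genes were lower in MI-E, as were 52.4% of all genes, with a median log2 fold change of -0.36 against -0.022 over all genes. The mean CPM of Gbp2 was 8.48 ± 1.76 for MI-E and 16.0 ± 8.12 for MI (SD, n = 3 each), or -0.91 ± 0.39 in log2 fold change ± SE (adjusted p = 0.26). For Gbp7 it was 24.1 ± 3.18 for MI-E and 38.4 ± 13.3 for MI, with a log2 fold change of -0.67 ± 0.26 (adjusted p = 0.23). These 2 were the genes with an unadjusted p under 0.05 in edgeR, both lower (2 of 10, against 8.88% of all genes), and also in DESeq2, against 9.7%. At an adjusted p of 0.05, 0 of 10 genes were called by either tool, where edgeR called 0.00661% and DESeq2 3.82% of all genes. Libraries overlapped for all 10 genes, against 10.1% of all genes that were lower without overlap. Without MI 1, Gbp7 passed the threshold with a log2 fold change of -0.93 (adjusted p = 0.034), while 6.39% of 15471 genes did. Without MI 2, the median was -0.17, 7 of 10 genes were lower and 0 had an unadjusted p under 0.05, against 14.1% of all genes in either direction. Insert length and group cannot be told apart in this comparison.

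Whether EMPA went with another difference after infarction than after sham operation is asked by the interaction, which subtracts Sham-E against Sham from MI-E against MI. The median of the 10 genes was -0.55, against -0.038 over all genes, with 9 of 10 negative, as were 53% of all genes, and Gbp9 at 0.07 ± 0.47 (SE). Gbp2 had an interaction of -1.42 ± 0.55 on the log2 scale (edgeR adjusted p = 0.32) and Gbp7 one of -0.81 ± 0.37 (adjusted p = 0.37). They were the only 2 of 10 with an unadjusted p under 0.05, in edgeR and in DESeq2, against 7.28% of all genes in that direction in edgeR and 7.91% in DESeq2. Of the 10, 0 passed an adjusted p of 0.05 in either tool, against 0.00661% of all genes in edgeR and 1.1% in DESeq2. Without Sham-E 3 the median was -0.27, and 0 of 10 genes had an unadjusted p under 0.05, against 17.2% of all genes in either direction. Without Sham-E 1 the median was -0.83, and 7 of 10 genes were negative at that threshold, against 5.31% of all genes.

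MI against Sham and Sham-E against Sham showed smaller differences. In MI against Sham the median log2 fold change was -0.21, against 0.025 over all genes, with 6 of 10 genes lower in MI, as were 47.6% of all genes. The mean CPM of Irgm1 was 37.5 ± 9.23 for MI and 52.6 ± 2.57 for Sham (SD, n = 3 each), or -0.49 ± 0.32 in log2 fold change ± SE (adjusted p = 0.42 by edgeR). It was the only 1 of 10 genes whose libraries did not overlap, against 13.8% of all genes that were lower without overlap. Gbp2 had the largest positive value, 0.33 ± 0.38, with mean CPM of 16.0 ± 8.12 for MI and 12.7 ± 1.25 for Sham. By edgeR and by DESeq2, 0 of 10 genes were called at an adjusted p of 0.05 and 0 had an unadjusted p under 0.05, whereas edgeR called 0.417% and 19.5% of all genes by these rules, and DESeq2 7.05% and 21.2%. Without MI 1 the median was -0.01. Without MI 2 it was -0.37, with 2 of 10 genes lower at an unadjusted p under 0.05, against 11% of all genes.

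In Sham-E against Sham, 8 of 10 genes were higher, as were 52.5% of all genes, and the median log2 fold change was 0.14, against 0.013 over all genes. Gbp2 averaged 18.01 ± 8.09 CPM in Sham-E and 12.7 ± 1.25 CPM in Sham, or 0.50 ± 0.38 in log2 fold change ± SE (adjusted p = 0.9996 by edgeR). Irgm1 averaged 52.5 ± 25.4 CPM in Sham-E and 52.6 ± 2.57 CPM in Sham, so the means were alike while the spread was not. By both tools 0 of 10 genes were called at an adjusted p of 0.05 (0% of all genes in edgeR, 0.0132% in DESeq2) and 0 had an unadjusted p under 0.05, against 1.9% of all genes in edgeR and 2.51% in DESeq2. Without Sham-E 1 all 10 genes were higher in Sham-E, with a median of 0.40. Of these, 2 had an unadjusted p under 0.05 by edgeR, against 173 of 15496 genes in either direction. Without Sham-E 3 the median was -0.13, so the direction rested on single libraries. Then 0 of 10 had an unadjusted p under 0.05, against 1032 of 15505 genes.

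MI-E and Sham were the 2 groups with little spread between libraries, and their comparison was added after these values had been seen. It differs in both infarction and EMPA, so it speaks for neither alone. All 10 genes were lower in MI-E, as were 47.6% of all genes, with a median log2 fold change of -0.62 against 0.021 over all genes, and 9 of 10 had no overlap between libraries, all but Gbp4, against 17.1% of all genes lower without overlap. Irgm1 averaged 27.95 ± 2.22 CPM in MI-E and 52.6 ± 2.57 CPM in Sham (SD, n = 3 each), or -0.91 ± 0.32 in log2 fold change ± SE (adjusted p = 0.29 by edgeR). Igtp averaged 19.1 ± 2.29 CPM in MI-E and 31.6 ± 2.53 CPM in Sham, a log2 fold change of -0.72 ± 0.32 (adjusted p = 0.35), and Gbp7 had -0.66 ± 0.26 (adjusted p = 0.31). With one spread estimated for all 4 groups, 0 of 10 genes were called by edgeR at an adjusted p of 0.05 (0% of all genes), and 3 of 10 had an unadjusted p under 0.05, against 6.82% of all genes in that direction. DESeq2 called 0 of 10, against 1.15% of all genes, and had 4 of 10 lower at an unadjusted p under 0.05, against 7.72% of all genes.

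Fitted to the MI-E and Sham libraries alone, edgeR called 7 of the 10 genes, Gbp2, Gbp6, Gbp7, Gbp8, Gbp9, Irgm1 and Igtp, all lower in MI-E. The smallest adjusted p was 0.00051 for Irgm1, followed by 0.0042 for Igtp and 0.0054 for Gbp7. Both groups were picked after their small spread in these genes had been seen. A fit that takes its spread from them alone favours small p-values, so these calls are no independent support. The log2 fold changes stayed near those above, at -0.91 for Irgm1 and -0.72 for Igtp. That fit called 15.2% of the 14466 genes that passed its filter, so calls were common among all genes. It differed from the fit to all 12 libraries in the genes tested, the scaling and the libraries that gave the spread, and these were not told apart.

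With MI-E and MI set against Sham-E and Sham, also added after the values were seen, all 10 genes had negative averaged log2 fold changes, as had 48.8% of all genes, with a median of -0.44 against 0.0084 over all genes. The value was -0.70 ± 0.23 for Irgm1 (SE, edgeR adjusted p = 0.12), -0.60 ± 0.23 for Igtp (adjusted p = 0.17) and -0.64 ± 0.28 for Gbp8 (adjusted p = 0.23). Of the 10, 0 were called by edgeR, against 0.284% of all genes. At an unadjusted p under 0.05 there were 5 of 10, Gbp5, Gbp6, Gbp8, Irgm1 and Igtp, all lower, against 9.73% of all genes. DESeq2 had 6 of 10 lower at an unadjusted p under 0.05, against 10.6% of all genes, and called 1, Irgm1 (adjusted p = 0.042), where it called 7.49% of all genes. Without Sham-E 1, edgeR called 3 of 10 (Gbp6, Irgm1 and Igtp) and 10.4% of 15496 genes, and without MI 2 it called 2 of 10 (Gbp5 and Gbp8) and 9.16% of 15506 genes. These comparisons use the same 12 libraries and share groups, so their values are not independent of each other.

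**Figure D4:**
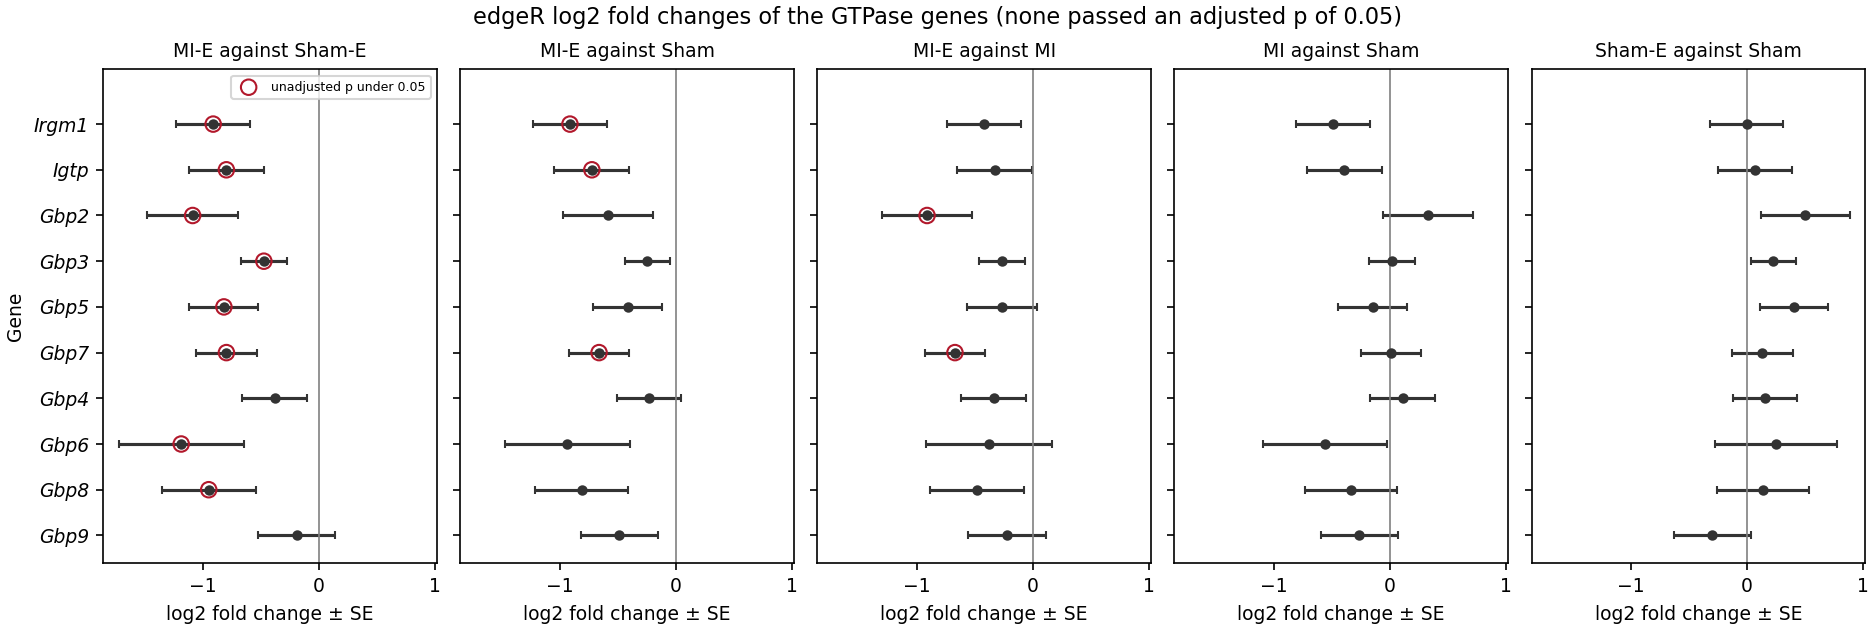
edgeR log2 fold changes ± SE of the 10 genes in the 5 comparisons of 2 groups, from the fit to all 12 libraries, with red rings at an unadjusted p under 0.05. All 10 values are negative in MI-E against Sham-E, MI-E against Sham and MI-E against MI, whereas values in MI against Sham and Sham-E against Sham lie on both sides of 0, and none passed an adjusted p of 0.05.

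Other genes of the interferon pathway were read from 6 lists, in which 0 genes were called over all genes tested in any comparison except Ifit2. The ligand, receptors, kinases and regulators of the interferon-gamma signal formed a list of 9 genes. The ligand gene Ifng had few reads, with 5, 20 and 4 counts in MI-E, 8, 9 and 3 counts in MI, 1, 30 and 9 counts in Sham-E, and 7, 10 and 12 counts in Sham, and all groups overlapped. Its single count in Sham-E 1 was the lowest of the 12 libraries, where the deposited TPM of 0.50 was not, so its order of libraries differed between counts and TPM. Jak1, which carries the signal of both interferon types, had a log2 difference of -0.41 ± 0.13 in MI-E against Sham-E (SE, edgeR adjusted p = 0.28). Irf1, a transcription factor that interferon-gamma induces, had -0.41 ± 0.18 (adjusted p = 0.35) in the same comparison. The libraries of MI-E lay below those of Sham-E without overlap for both genes, as they did for 12.2% of all genes. The list's median there was -0.11, with 7 of 9 genes lower, against 49.6% of all genes. At an unadjusted p under 0.05, 2 of 9 were lower, Jak1 and Irf1, against 7.45% of all genes.

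The remaining interferon-induced GTPases, such as Irgm2, Iigp1, Ifi47 and the antiviral Mx1 and Mx2, gave 9 tested genes of 11, since Gbp2b and Gbp11 did not pass the filter. All 9 were lower in MI-E against Sham-E (49.6% of all genes), 8 of them at an unadjusted p under 0.05 (7.45% of all genes), with a median log2 fold change of -1.18. Iigp1, an effector that loads onto parasite vacuoles, had 1.15, 0.70 and 0.93 TPM in MI-E, 0.92, 2.51 and 1.27 TPM in MI, 1.17, 3.15 and 6.01 TPM in Sham-E, and 2.09, 1.89 and 1.95 TPM in Sham. Its order of libraries was much that of the members, with Sham-E 3 and Sham-E 2 highest and MI 2 next. Irgm2 averaged 6.42 ± 0.667 TPM in MI-E, 12.2 ± 7.26 TPM in MI, 16.4 ± 7.59 TPM in Sham-E and 14.8 ± 1.75 TPM in Sham, and its log2 fold change in MI-E against MI was -0.85 ± 0.38 (SE, edgeR adjusted p = 0.28).

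Type I interferon targets gave 17 tested genes of 17. All 17 were lower in MI-E against Sham-E (49.6% of all genes), 12 of them at an unadjusted p under 0.05 (7.45% of all genes), with a median log2 fold change of -1.08. All 17 were also lower in MI against Sham (47.6% of all genes), with a median of -0.68, where the median of the GTPase genes was -0.21. Of the 17, 4 had an unadjusted p under 0.05 there, all lower, against 1302 of all 15119 genes that were lower at that threshold. The averaged comparison of infarcted with sham-operated mice called 1 of the 17, Ifit2, an antiviral protein, which fell by 0.73 ± 0.12 on the log2 scale (SE, edgeR adjusted p = 0.039). Ifit2 averaged 4.35 ± 0.636 TPM in MI-E, 4.68 ± 1.30 TPM in MI, 8.49 ± 0.930 TPM in Sham-E and 8.32 ± 0.416 TPM in Sham. In contrast to the GTPase genes it was not low in Sham-E 1, which had 7.55 TPM. Of the signalling genes of this branch, Irf9 averaged 38.9 ± 7.34 TPM in MI-E, 49.6 ± 16.9 TPM in MI, 72.45 ± 35.3 TPM in Sham-E and 84.6 ± 6.36 TPM in Sham. Its log2 fold change was -0.70 ± 0.29 in MI-E against Sham-E (adjusted p = 0.34) and -0.56 ± 0.29 in MI against Sham (adjusted p = 0.31). The ligand gene Ifnb1 did not pass the filter.

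Interferon-gamma targets outside the GTPase families were split in MI-E against Sham-E, with 9 of 18 lower (49.6% of all genes) and a median of -0.044. At an unadjusted p under 0.05, 4 of 18 were lower and 0 higher, against 7.45% of all genes that were lower. The libraries of 3 of 18 were lower without overlap and those of 0 higher, against 12.2% of all genes that were lower without overlap. Nlrc5, the activator of MHC class I genes, had -1.03 ± 0.22 in log2 fold change ± SE there (edgeR adjusted p = 0.24), and the chemokine gene Cxcl10 one of -1.87 ± 0.45 (adjusted p = 0.24). In MI-E against MI the list was split too, with 10 of 18 lower (52.4% of all genes) and a median of -0.06. There B2m had -0.61 ± 0.20 (adjusted p = 0.16). The MHC class II gene H2-Eb1 had 0.53 ± 0.18 in that comparison (adjusted p = 0.18), with means of 258.7 ± 20.9 TPM in MI-E and 185.8 ± 22.3 TPM in MI. Of 11 inflammasome and autophagy partners, 6 were lower in MI-E against Sham-E (49.6% of all genes), with a median of -0.02. Casp1, the inflammasome protease, had log2 fold changes of -0.68 ± 0.17 in MI-E against MI (adjusted p = 0.11) and 0.67 ± 0.17 in MI against Sham (adjusted p = 0.075), 2 comparisons that share the MI libraries.

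The genes whose libraries followed the GTPase genes most closely were found by the root-mean-square difference, over the 12 libraries, between a gene's centred log2 CPM and the mean of the 10 members. Over 11716 genes whose mean log2 CPM reached 1, the median difference was 0.51. A gene with the same level in all libraries would have a difference of 0.43. The 6 closest genes were Tcf4 at 0.15, Parp9 at 0.16, Stat2 at 0.17, Pde7a at 0.18, 4930503L19Rik at 0.18 and Siglech at 0.18. Among the members, Irgm1 lay at 0.15 and Gbp6 at 0.36, both being part of the mean they are set against, and 1109 non-members lay closer than Gbp6. Stat2, which carries the type I interferon signal, had 45.6, 38.9 and 47.3 CPM in MI-E, 53.55, 69.2 and 58.7 in MI, 45.6, 84.2 and 80.7 CPM in Sham-E, and 69.0, 76.4 and 75.1 CPM in Sham. Its MI-E libraries were below all MI and all Sham libraries, and Sham-E 1 was the low library of its group. Stat2 was picked for such a course in these 12 libraries, so its values are no separate support. Tcf4 is a transcription factor that plasmacytoid dendritic cells need, and Siglech is a surface receptor of these cells, which are specialised in making type I interferon.

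Marker sums of 15 cell types were set against the mean of the members by the same root-mean-square difference, on the log2 scale. The 4 plasmacytoid dendritic cell markers Siglech, Bst2, Ccr9 and Tcf4 were all measured, none at 0 in all libraries, and summed to 105.7 to 107.3 TPM in MI-E, 86.8 to 172.0 TPM in MI, 98.3 to 231.9 TPM in Sham-E and 170.6 to 230.3 TPM in Sham. This list had the smallest difference from the mean of the members among 15 marker lists, 0.27, and Bst2 is itself induced by interferon. Tcf4 and Siglech are also among the 6 closest genes named above, so this ranking is not independent of that one. In Sham-E 1 the sum was 98.3 TPM and in Sham-E 2 and 3 it was 231.9 and 216.8 TPM, as with the members, but in MI 3 it was the lowest of all libraries, where the members stood at their mean. The 5 early B-lineage markers Rag1, Vpreb1, Igll1, Dntt and Ebf1 summed to 39.25 to 60.0 TPM in MI-E, 57.3 to 100.4 TPM in MI, 11.5 to 238.5 TPM in Sham-E and 253.8 to 315.7 TPM in Sham, with the lowest sum in Sham-E 1. Their difference from the mean of the members, 1.08, was the largest among the 15 lists. This measure grows with the size of the swings as well as with a different course. Like the members, these markers were lower in MI-E, MI 1 and Sham-E 1 than in Sham. They were high in Sham-E 2 and 3, at 238.5 and 206.4 TPM, but, unlike the members, low in MI 2, at 90.4 TPM. The 5 B-cell markers had a difference of 0.43, about what a list with the same level in all libraries would have. They summed to 514.0 to 548.2 TPM in MI-E, 327.9 to 422.0 TPM in MI, 362.5 to 835.6 TPM in Sham-E and 696.5 to 1037 TPM in Sham. Their sum was higher in every MI-E than in every MI library, whereas the members had negative log2 fold changes in MI-E against MI. The 4 endothelial markers summed to 24.45 to 28.1 TPM in MI-E, 24.5 to 28.3 TPM in MI, 21.8 to 33.0 TPM in Sham-E and 30.2 to 35.6 TPM in Sham. No gene of these lists was at 0 in all libraries, and the part of these cells in the levels of the GTPase genes was not tested.

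**Figure D5:**
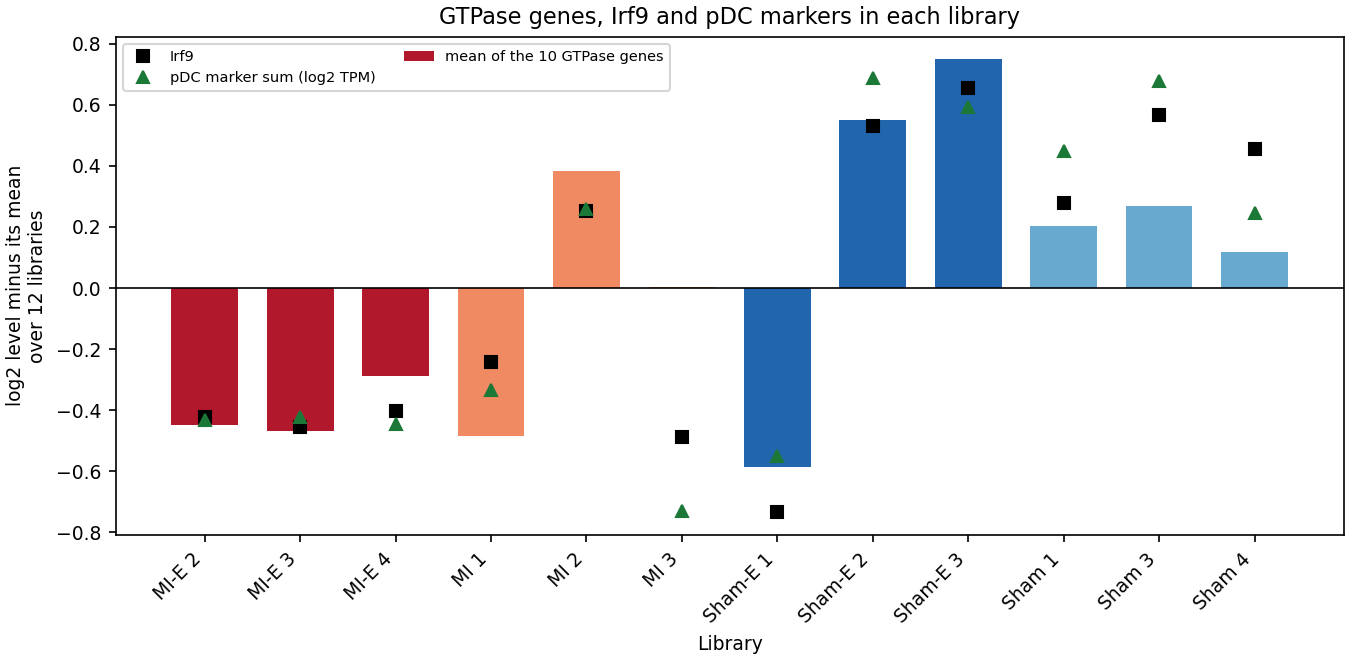
Mean centred log2 CPM of the 10 GTPase genes in each library (bars) with the centred log2 CPM of Irf9 (squares) and the centred log2 summed TPM of the plasmacytoid dendritic cell (pDC) markers (triangles), in the order MI-E, MI, Sham-E and Sham. All 3 measures are below 0 in MI-E, MI 1 and Sham-E 1 and above 0 in MI 2, Sham-E 2, Sham-E 3 and Sham, while in MI 3 the GTPase genes stand at 0.003 and the other measures are below -0.4.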

How the data were processed

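RNA of 12 bone marrow libraries was measured. The authors deposited a table of RSEM expected counts per gene, in whole numbers and unscaled, and one of TPM, in which RSEM accounts for transcript length and total. Tools named in the submitters' processing notes are STAR 2.4.0j, CASAVA 1.8 and RSEM, on build mm10, and strandedness is not given there. Columns named by group and number were matched to single samples for MI and Sham-E, and to the group alone for MI-E and Sham.

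Counts were filtered with filterByExpr, scaled by TMM and tested in edgeR 4.0.16 under R 4.3.3 (quasi-likelihood F-test) over all 12 libraries with a mean per group and 8 residual degrees of freedom, with Benjamini-Hochberg adjustment over 15119 genes and a threshold of 0.05. The SE was obtained by dividing the absolute log2 fold change by the root of F. Centred levels use log2 CPM with a prior count of 2. The test was checked on simulated data. Alternatives were DESeq2 1.42.0, its size factors, no filter, fits to the groups compared, the column number as a block, and each library left out. Genes, lists, comparisons and rules were chosen with earlier results of these data known, and the comparisons of MI-E with Sham and of infarcted with sham-operated mice after the members' values were seen. Values of every library are given for members with an unadjusted p under 0.05 in any of the first 5 comparisons, and up to 3 genes per list and comparison, with the smallest p, may be named. The ligand genes Ifng and Ifnb1 are named outside this rule, for their role. One pathway gene is not reported here. Promoters come from RefSeq (GRCm38.p6), positions and shared sequence from GENCODE M21.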

Additional observations from a re-analysis of the deposited data

How the results depend on the processing

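Of 870 log2 fold changes of single genes under the alternatives, 820 kept direction and side of the threshold, 15 newly passed it, 0 lost it and 35 changed sign, the lowest adjusted p among these being 0.49. The median of the 10 genes kept its sign in all comparisons except Sham-E against Sham, where leaving out 1 library gave -0.13 to 0.40. Counts of genes called changed in 6 of 87 cases. In MI-E against Sham, a comparison added after the values were seen, the fit to only these groups called 7. In infarcted against sham-operated mice DESeq2 called 1, and leaving out 1 library gave 0 to 3. In MI-E against MI and in MI-E against Sham-E, leaving out 1 library gave 0 to 1. Over all genes, DESeq2 called 1066 in MI against Sham, 577 in MI-E against MI, 212 in MI-E against Sham-E, 167 in the interaction, 174 in MI-E against Sham, 1132 in the averaged comparison and 2 in Sham-E against Sham, against 63, 1, 0, 1, 0, 43 and 0 by edgeR. Without the filter edgeR called 156 in MI against Sham, 33 in MI-E against MI, 3 in MI-E against Sham and 113 in the averaged comparison, and fitted to the groups compared it called 344, 3 and 2192 in the first 3 of these.

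Deviations of same-numbered libraries correlated at -0.206 to 0.15 over 13 pairs (median -0.0069), 4 of them over 0.1. Those of libraries with different numbers correlated at -0.217 to 0.263 over 41 pairs (median -0.0006), 6 of them over 0.1. With ranges that overlap, the numbers are not taken as pairs. With the replicate block 0 of the 10 genes were called in every comparison, and over all genes 1 was called in MI against Sham, 1 in MI-E against MI and 0 in the others. At an unadjusted p under 0.05, MI-E against Sham then had 7 of 10 genes lower rather than 3, against 1191 of 15119 genes. The averaged comparison had 8 rather than 5, against 1466, with a smallest adjusted p of 0.077 by edgeR. MI-E against Sham-E had 7 rather than 8, against 943, and the interaction 1 rather than 2, against 479. The medians were -0.92, -0.59, -0.93 and -0.51 in this order. Under the replicate block 5 values changed sign, in MI against Sham Gbp2 (-0.030), Gbp3 (-0.059) and Gbp7 (-0.12), and in Sham-E against Sham Gbp8 (-0.15) and Igtp (-0.050). The cause was not tested.

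With 1 library left out, sign changes gave these ranges of log2 fold change. In MI against Sham they were -0.15 to 0.61 for Gbp2, -0.22 to 0.17 for Gbp3, -0.15 to 0.29 for Gbp4, -0.51 to 0.082 for Gbp5 and -0.20 to 0.27 for Gbp7. In MI-E against MI they were -0.50 to 0.098 for Gbp5, -0.71 to 0.091 for Gbp8 and -0.50 to 0.014 for Igtp. In Sham-E against Sham they were -0.093 to 0.41 for Gbp4, -0.41 to 0.70 for Gbp6, -0.052 to 0.35 for Gbp7, -0.17 to 0.46 for Gbp8, -0.56 to 0.063 for Gbp9, -0.26 to 0.35 for Irgm1 and -0.23 to 0.40 for Igtp. Gbp9 had -0.55 to 0.061 in MI-E against Sham-E and -0.28 to 0.35 in the interaction, where Gbp6 had -1.07 to 0.036.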
